A study of Rattus norvegicus with 10 samples.

Results

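The genes of alcohol dehydrogenases (Adh), aldehyde dehydrogenases (Aldh) and aldo-keto reductases (Akr) were examined in rat liver, 34 genes out of 14217 genes that had a probe set naming them alone. A gene belonged to the set when the platform annotation gave a probe set exactly 1 symbol made of Adh, Aldh or Akr and a number, with 3 such symbols left out by the rule. Where several probe sets named a gene, the one brightest on average over all arrays stood for it, which gave 5 Adh, 16 Aldh and 13 Akr genes. The livers came from 10 Wistar/ST rats, all on a high-fat diet, with 1 Affymetrix array per rat. In the mulberry group, 5 rats received a daily dose of 500 mg of dried leaf powder of mulberry for each kg of body weight, given through a gastric probe in carboxymethylcellulose. In the control group, 5 rats had a dose of 0 mg under the same protocol. Dosing followed overnight fasts, and a piece of each liver was put in RNAlater after 7 weeks. The sex and age of the rats are not given in the sources used here, and no group was kept on a standard diet, so the comparison addresses the leaf powder under fat feeding alone.

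Alcohol dehydrogenases oxidise alcohols such as ethanol and retinol to aldehydes, and aldehyde dehydrogenases carry these and other aldehydes on to carboxylic acids, mostly with NAD+ or NADP+ as the acceptor. Aldo-keto reductases work in the opposite direction and reduce aldehydes and ketones, sugars and steroids included, with NADPH. In liver these enzymes clear ingested ethanol and the reactive aldehydes left by lipid peroxidation, make retinoic acid, and take part in amino acid, folate, sugar and steroid metabolism.

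The sequences just upstream of 4 of the genes are shown. The genes were chosen by their measured values: Adh7 and Aldh1b1 had the smallest unadjusted p-values of the set, and Adh4 and Akr1b7 varied most from rat to rat. No link between the sequences and these values was tested. Each sequence is the 250 bases before the RefSeq transcription start on rat assembly GRCr8, written 5′ to 3′. Capitals mark matches, on either strand, to TATAAA (the TATA box), TATTTA (an AT-rich variant of it), CCAAT (the CCAAT box), CACGTG (an E-box), TGACNNNGC (the core of the antioxidant response element) or TTGCNNAA (a C/EBP-type sequence). TATTTA was added after the sequences had been read.
Adh7, chr2:229421875-229422124, plus strand: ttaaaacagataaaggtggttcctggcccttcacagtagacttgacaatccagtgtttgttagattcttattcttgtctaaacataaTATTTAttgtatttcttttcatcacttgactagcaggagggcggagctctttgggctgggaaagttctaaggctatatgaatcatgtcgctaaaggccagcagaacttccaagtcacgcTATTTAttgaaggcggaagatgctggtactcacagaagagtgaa
Adh4, chr2:229621842-229622091, plus strand: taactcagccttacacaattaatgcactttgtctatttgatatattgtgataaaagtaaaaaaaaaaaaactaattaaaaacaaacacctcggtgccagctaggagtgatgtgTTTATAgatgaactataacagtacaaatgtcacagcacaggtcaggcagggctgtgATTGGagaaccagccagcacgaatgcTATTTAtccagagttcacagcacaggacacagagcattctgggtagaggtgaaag
Aldh1b1, chr5:64858750-64858999, plus strand: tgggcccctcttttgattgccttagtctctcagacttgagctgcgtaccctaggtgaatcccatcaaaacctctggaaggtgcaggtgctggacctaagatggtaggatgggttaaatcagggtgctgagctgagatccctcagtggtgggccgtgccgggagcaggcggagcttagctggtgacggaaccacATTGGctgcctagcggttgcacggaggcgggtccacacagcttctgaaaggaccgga
Akr1b7, chr4:64043720-64043969, plus strand: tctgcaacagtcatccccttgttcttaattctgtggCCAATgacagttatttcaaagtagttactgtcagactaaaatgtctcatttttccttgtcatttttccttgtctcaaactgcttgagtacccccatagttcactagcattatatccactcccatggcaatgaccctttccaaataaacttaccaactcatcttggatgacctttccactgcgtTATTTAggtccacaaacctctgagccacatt
The TATTTA letters stood at positions -44 to -39 from the start in Adh7, with another copy at -163 to -158, at -55 to -50 in Adh4 and at -31 to -26 in Akr1b7. Adh4 also held TATAAA on the minus strand and CCAAT on the minus strand, Akr1b7 held CCAAT on the plus strand, and Aldh1b1 held CCAAT alone, on the minus strand. Upstream windows were given for 28 of the 34 genes, and TATTTA occurred in 10 of these 28 (35.7%), against 13.4% of all 33469 windows of the same length. The 10 include Adh7, Adh4 and Akr1b7, whose sequences had been read before TATTTA was added. The share for TATTTA is therefore raised by that choice, and no conclusion is drawn from it. CCAAT occurred in 16 of the 28 (57.1%), against 34.0% of all windows. The difference between these shares was not tested. All windows were not restricted to genes on the array, and the 28 include those of related, neighbouring Adh and Akr1c genes. TATAAA was found in 14.3% of the members' windows and 12.9% of all, TGACNNNGC in 10.7% and 10.1%, TTGCNNAA in 7.14% and 9.22%, and CACGTG in 0 of 28 and 5.59%. The G and C content of the members' windows ran from 35.6% for Akr1c3 to 77.2% for Aldh1a2, with 40.8% for Adh7 and 62.4% for Adh5, which lie in the same cluster of Adh genes on chromosome 2. These matches are letters in a window and were not tested as binding sites.

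Every array had been scaled to the same trimmed mean, median intensity per array was between 97.5 and 118, and array pairs correlated at 0.957 to 0.975 over all probe sets. The labelled tissue was checked against hepatocyte markers such as Alb and Ttr: 8 of 9 were named on the array, all 8 were above the filter on low values, and their summed intensity was 217109 to 266855 in mulberry and 217035 to 263809 in control rats. Of 4 neutrophil markers, 3 were named on the array and 2 were above the filter, both with lower means in mulberry rats and an unadjusted limma p under 0.05 (median log2 difference -0.70), and the summed intensity was 152 to 280 in mulberry and 273 to 388 in control rats. Their part in the results below was not tested. No marker list, of macrophages, endothelium, stellate cells, bile duct, lymphocytes, red blood cells, adipocytes or pancreas included, held a gene with an adjusted p under 0.05. Besides the 2 neutrophil markers, 1 of 6 macrophage markers had an unadjusted p under 0.05. In whole liver, fewer cells of a type and less RNA per cell cannot be told apart.

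The enzymes of these families showed no difference between mulberry and control livers that passed the test across the whole array. Of the 34 genes, 31 passed the filter, which kept probe sets whose average lay above the 40th percentile, an intensity of 61.1. The linear model of limma, adjusted by Benjamini-Hochberg over the 18625 tested probe sets, called 0 of the 31 and 0% of all probe sets, and the smallest adjusted p was 0.9999. At an unadjusted p under 0.05 there were 4 of the 31 (12.9%), Aldh1b1, Adh7, Aldh1l2 and Aldh18a1, against 1.74% of all probe sets tested. Of these, 3 had a higher mean with mulberry, against 1.07% of all probe sets higher at that level, and 1 had a lower mean, against 0.671%. These 4 were read out of genes chosen with earlier results known, and none is called.

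Across the set the differences were small. The median difference, mulberry minus control on the scale of log2(intensity + 16), was +0.012 over the 31 genes and +0.0075 over all probe sets tested. Higher means with mulberry were found for 18 genes and lower means for 13, a split that turned to 13 and 18 when every array was shifted to a common median. The absolute difference was over 0.2 for 8 of the 31 (25.8%), against 20.1% of all probe sets. It was over 0.2 for 16.2% of 10328 genes when each was held at 1 probe set. The most negative difference was that of Adh7 (-0.64) and the most positive that of Akr1b7 (+0.62).

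**Figure D1:**
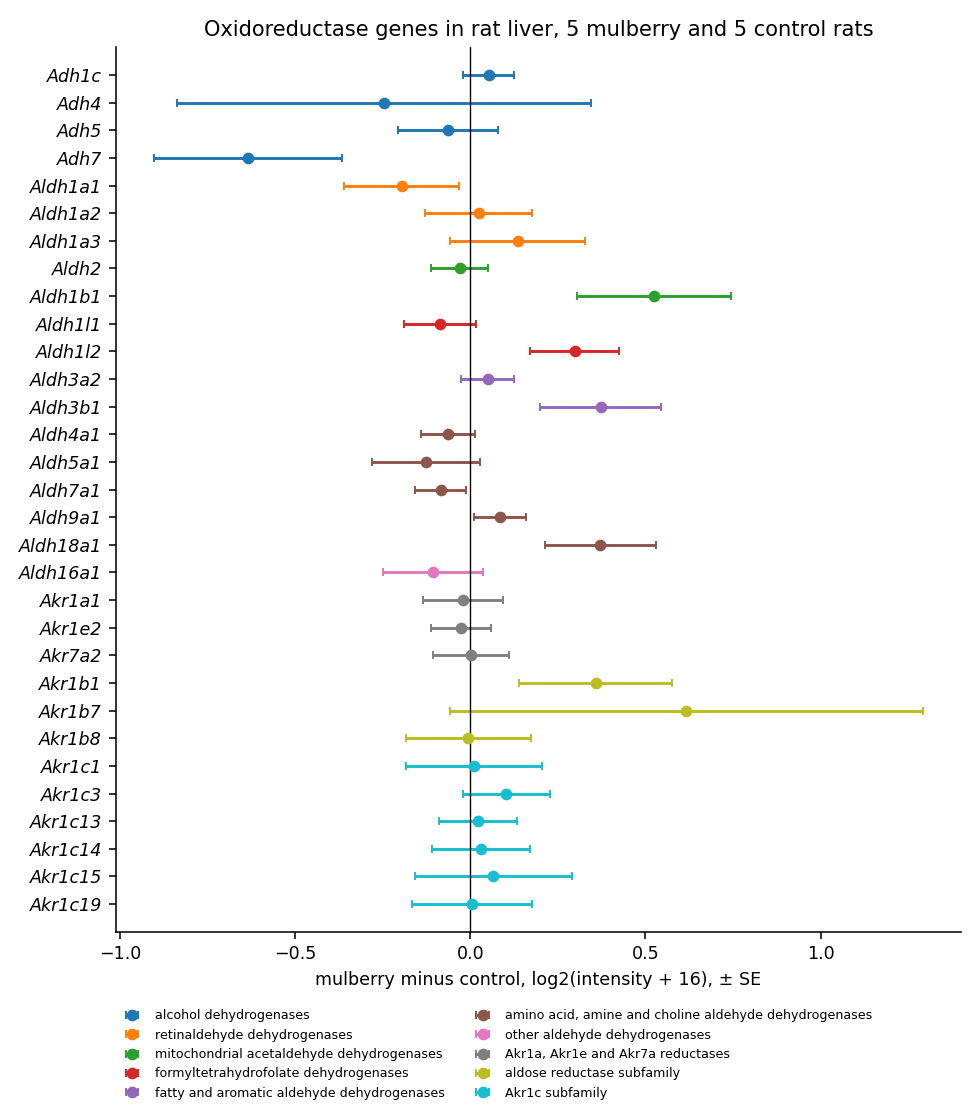
Difference between mulberry and control rats for the 31 tested genes (x axis, log2(intensity + 16), point = model estimate, bar = SE), with genes down the y axis and colours for enzyme classes. Most points lie within 0.2 of 0, Adh7 lies to the left, and Aldh1b1, Aldh18a1, Aldh3b1, Aldh1l2 and Akr1b1 lie to the right, while Adh4 and Akr1b7 have the widest bars.

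Among the alcohol dehydrogenases, 1 of 4 tested genes had a higher mean with mulberry and 3 had lower means, with a median difference of -0.16. With quantile normalization all 4 were lower, and with array weights they split evenly. Adh7, the class IV enzyme with high activity towards retinol, known mainly from stomach and other epithelia, had intensities of 509, 767, 901, 557 and 663 in mulberry rats 1 to 5, against 950, 929, 625, 1028 and 2156 in control rats 1 to 5. All 5 mulberry rats lay under the control median, and control rat 3 was the only control rat below the highest mulberry value, so the groups overlapped through that rat. The means were 680 ± 159 in mulberry and 1138 ± 589 in control rats (SD, n = 5 each), a log2 difference of -0.64 ± 0.27 (SE, limma unadjusted p = 0.0339, adjusted p = 0.9999). Without control rat 5, which had the highest value, the difference was -0.38, and with any other rat left out it was at least as far from 0 as -0.54.

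Adh1c, the class I enzyme that carries most ethanol oxidation in liver, differed little between the groups. Its intensity was 35623, 29771, 32917, 34292 and 33248 in mulberry rats 1 to 5, against 28672, 30307, 33821, 34621 and 32646 in control rats 1 to 5. The groups overlapped almost fully, and the difference was +0.052 ± 0.074 (95% interval -0.11 to +0.21), with its sign turned by quantile normalization. The other probe set of Adh1c gave -0.15 ± 0.27, with 2914 in control rat 1 and 8320 in control rat 5 as its extremes. Adh5, the glutathione-dependent formaldehyde dehydrogenase, averaged 5851 ± 852 in mulberry and 6167 ± 1291 in control rats (SD, n = 5 each), a difference of -0.064 ± 0.14 (SE).

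Adh4, the class II enzyme, which oxidises longer alcohols and retinol, varied widely within both groups. Its intensity was 2911, 963, 3438, 873 and 1018 in mulberry rats 1 to 5, against 434, 2886, 1113, 3107 and 4638 in control rats 1 to 5. In each group some rats stood near or under 1113 and others at 2886 or above, with no rat between, and the groups overlapped throughout. The difference was -0.25 ± 0.59 (SE), with a 95% interval of -1.53 to +1.03, so a change of either sign and of more than 1 on the log2 scale lies inside it. Without control rat 5 the difference was +0.087. Adh6a was below the filter, at intensities of 8.21 to 22.6 in mulberry and 4.21 to 13.8 in control rats, and was not tested.

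The retinaldehyde dehydrogenases, which make retinoic acid, gave 2 higher means and 1 lower. Aldh1a1, the main cytosolic form in liver, averaged 7576 ± 1465 in mulberry and 8724 ± 2096 in control rats (SD, n = 5 each), a difference of -0.20 ± 0.16 (SE). It was -0.067 without control rat 3 and -0.088 without mulberry rat 4. Aldh1a2 differed by +0.024 ± 0.15 and Aldh1a3 by +0.14 ± 0.19, the last of which was +0.0096 without control rat 5, +0.038 without mulberry rat 3 and +0.072 without control rat 2. The sign of Aldh1a2 turned with quantile normalization and with the median shift. None of the 3 passed the limma test.

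Aldh1b1 and Aldh2 are the mitochondrial enzymes that oxidise acetaldehyde. Aldh1b1 had intensities of 144, 147, 162, 164 and 216 in mulberry rats 1 to 5, against 162, 136, 69.7, 131 and 75.6 in control rats 1 to 5. All 5 mulberry rats lay above the control median, and control rat 1 was the only control rat above the lowest mulberry value. The means were 166 ± 28.8 in mulberry and 115 ± 40.4 in control rats (SD, n = 5 each), a difference of +0.52 ± 0.22 (SE, limma unadjusted p = 0.0325, adjusted p = 0.9999). The low controls were rats 3 and 5, and without them in turn the difference was +0.39 and +0.41.

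Aldh2, the enzyme with the highest affinity for acetaldehyde, showed no such pattern. Its intensity was 15825, 14506, 14280, 12545 and 14028 in mulberry rats 1 to 5, against 15129, 13803, 15444, 15314 and 12987 in control rats 1 to 5. The groups overlapped, with mulberry rat 1 highest and mulberry rat 4 lowest of all 10 rats. The difference was -0.031 ± 0.082 (95% interval -0.21 to +0.15), and its sign turned with array weights and without mulberry rat 4.

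Of the formyltetrahydrofolate dehydrogenases, which release the carbon of 10-formyltetrahydrofolate as carbon dioxide, the mitochondrial Aldh1l2 had a higher mean with mulberry and the cytosolic Aldh1l1 a lower. Aldh1l2 had intensities of 4234, 3642, 3084, 4391 and 4172 in mulberry rats 1 to 5, against 3627, 3548, 3134, 2495 and 3067 in control rats 1 to 5. Mulberry rat 3 lay among the control rats, and the other 4 mulberry rats lay above every control rat. The means were 3905 ± 539 in mulberry and 3174 ± 453 in control rats (SD, n = 5 each), a difference of +0.30 ± 0.13 (SE, limma unadjusted p = 0.0357, adjusted p = 0.9999). Aldh1l1 averaged 6877 ± 802 in mulberry and 7289 ± 754 in control rats, a difference of -0.086 ± 0.10. The difference between the 2 genes' responses was not tested.

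Among enzymes of amino acid, amine and choline aldehydes, Aldh18a1 was the only member of the set whose groups did not overlap (1 of 31 genes, against 0.344% of all probe sets tested). This mitochondrial enzyme, a bifunctional synthase, makes the precursor of proline and ornithine from glutamate. Its intensity was 95.4, 114, 99.5, 127 and 118 in mulberry rats 1 to 5, against 82.5, 91.3, 74.6, 67.6 and 94.9 in control rats 1 to 5. The gap between the lowest mulberry value, 95.4 in rat 1, and the highest control value, 94.9 in rat 5, was narrow, and it closed with quantile normalization and with the median shift. The difference was +0.37 ± 0.16 (SE, limma unadjusted p = 0.0362, adjusted p = 0.9999), between means of 111 ± 13.1 in mulberry and 82.2 ± 11.4 in control rats (SD, n = 5 each).

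Of the other enzymes of that class, Aldh4a1, Aldh7a1 and Aldh9a1 were among the steadiest of the set. Aldh4a1, which acts in proline breakdown, differed by -0.064 ± 0.078, Aldh7a1, which acts in lysine breakdown, by -0.084 ± 0.072, and Aldh9a1, which oxidises aminoaldehydes on the way to carnitine, by +0.085 ± 0.075 (log2 difference ± SE). For Aldh7a1, 3 of 5 mulberry rats lay below the lowest control rat, but the 95% interval, -0.24 to +0.072, included 0. Aldh5a1, the succinate semialdehyde dehydrogenase of GABA breakdown, differed by -0.13 ± 0.15 on its main probe set and by -0.22 ± 0.15 on another, with a further probe set below the filter. Aldh16a1 differed by -0.11 ± 0.14.

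Of the fatty and aromatic aldehyde dehydrogenases, Aldh3b1 had the next smallest p of the set. Its intensity was 216, 216, 263, 293 and 260 in mulberry rats 1 to 5, against 178, 223, 263, 162 and 137 in control rats 1 to 5. All 5 mulberry rats lay above the control median, and control rats 2 and 3 overlapped with them. The means were 249.7 ± 33.1 in mulberry and 193 ± 50.3 in control rats (SD, n = 5 each), a difference of +0.37 ± 0.17 (SE, limma unadjusted p = 0.050008).

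Aldh3a2, the microsomal fatty aldehyde dehydrogenase, differed little. Its intensity was 18403, 20602, 19252, 19107 and 20022 in mulberry rats 1 to 5, against 16314, 18252, 19535, 20701 and 19539 in control rats 1 to 5. The mulberry values lay inside the control range, and the difference was +0.049 ± 0.076 (95% interval -0.12 to +0.21). Aldh3a1, the dioxin-inducible form, was below the filter, at 2.33 to 25.7 in mulberry and 2.22 to 23.9 in control rats.

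**Figure D2:**
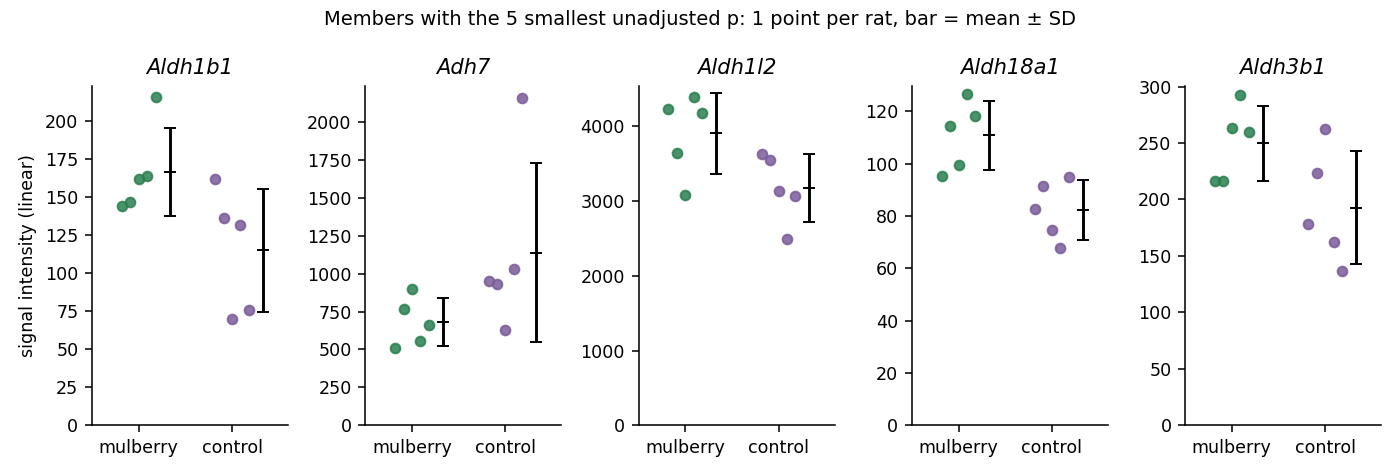
Signal intensity (linear y axis from 0) of the 5 genes with the smallest unadjusted p, 1 point per rat, mulberry rats on the left and control rats on the right of each panel, bars showing mean ± SD (n = 5 each). Only Aldh18a1 has groups that do not overlap; Adh7 is lower and the other 4 are higher in the mean of mulberry rats, and the highest Adh7 value, 2156, is that of control rat 5.

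The aldose reductase subfamily reduces glucose, lipid-derived aldehydes and related carbonyls. Akr1b1, aldose reductase itself, had intensities of 535, 607, 362, 650 and 738 in mulberry rats 1 to 5, against 383, 310, 629, 557 and 377 in control rats 1 to 5. The 2 highest values were those of mulberry rats 5 and 4, and mulberry rat 3 lay below every control rat but rat 2, so the groups overlapped. The difference was +0.36 ± 0.22 (SE, limma unadjusted p = 0.124), and the other tested probe set of Akr1b1 gave +0.0085 ± 0.17.

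Akr1b7, first known from the mouse vas deferens and active on lipid aldehydes, had the widest spread of the set. Its intensity was 474, 1406, 156, 1521 and 186 in mulberry rats 1 to 5, against 512, 284, 1033, 143 and 149.9 in control rats 1 to 5. High and low rats occurred in both groups, and the groups overlapped. The difference of +0.62 ± 0.67 (SE) therefore had a 95% interval of -0.84 to +2.08, and ran from +0.22 without mulberry rat 4 to +1.03 without control rat 3. Akr1b8 differed by -0.0056 ± 0.18, and Akr1b10 was below the filter on both of its probe sets.

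The Akr1c genes, among them enzymes that reduce and oxidise steroid hormones, gave differences close to 0. All 6 tested genes had a higher mean with mulberry, between +0.0045 for Akr1c19 and +0.10 for Akr1c3, but 3 of the 6 were lower with the median shift and 1 with quantile normalization. Akr1c14, the 3-alpha-hydroxysteroid dehydrogenase of rat liver, had intensities of 20686, 17003, 14487, 25024 and 17004 in mulberry rats 1 to 5, against 17357, 14563, 20796, 20058 and 18504 in control rats 1 to 5. The highest and the lowest value were both in mulberry rats, rat 4 and rat 3, and the control rats lay between them. The difference was +0.030 ± 0.14, with +0.015 and +0.0040 on the other 2 probe sets.

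Akr1c15 showed the same mulberry rat on top, with 445, 413, 287, 844 and 441 in mulberry rats 1 to 5, against 405, 382, 549, 448 and 410 in control rats 1 to 5. Its difference was +0.065 ± 0.22 and turned to -0.15 without mulberry rat 4. Akr1c19 was also highest in mulberry rat 4, at 607, while its control rats lay between 379 and 416. Akr1c13 differed by +0.021 ± 0.11 and Akr1c1 by +0.012 ± 0.19. The Akr1c genes are close relatives that lie together on chromosome 17, and how far their probe sets share signal was not tested.

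The remaining reductases had differences close to 0. Akr1a1, aldehyde reductase, which takes part in vitamin C synthesis in rodents, had intensities of 12567, 11793, 11995, 12382 and 14048 in mulberry rats 1 to 5, against 10193, 11272, 15611, 14855 and 12462 in control rats 1 to 5. The mulberry values lay inside the control range, and the difference was -0.021 ± 0.11. Akr7a2, which reduces succinate semialdehyde, differed by +0.0021 ± 0.11 and Akr1e2, which reduces anhydrofructose, by -0.026 ± 0.085. Of these 3, Akr7a2 changed sign with the median shift and Akr1a1 with array weights.

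The set held both very steady and very variable genes. The standard deviation (SD) between rats of a group was pooled over both groups on the log2 scale. Its median was 0.24 over the 31 genes, 0.26 over all probe sets tested and 0.24 over 10328 genes at 1 probe set each. By this SD, Akr1b7 (1.34) ranked 27 and Adh4 (1.17) ranked 44 from the top of 18625 probe sets. The ratio of the highest to the lowest intensity among the 10 rats was 10.7 for both genes. At the other end, Aldh7a1 (0.077), Aldh9a1 (0.087), Aldh4a1 (0.087) and Akr1e2 (0.089) lay below the 2nd percentile of all tested SDs. For Aldh7a1 the highest rat was 1.20 times the lowest. Within-group spread was wider in mulberry rats for 15 of the 31 genes, with median SDs of 0.21 in mulberry and 0.20 in control rats. For Akr1c19 the SD was 0.40 in mulberry and 0.054 in control rats.

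**Figure D3:**
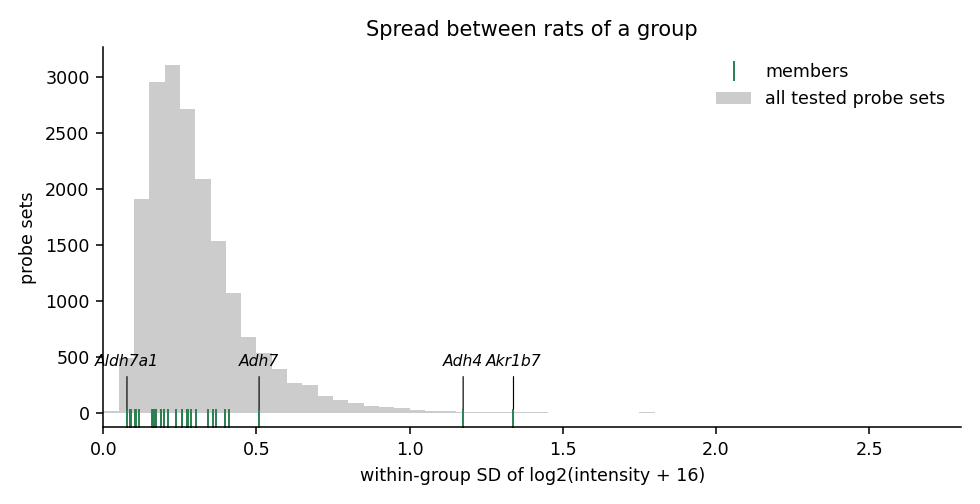
Histogram of the pooled within-group SD of log2(intensity + 16) (x axis) over all 18625 tested probe sets (y axis, number of probe sets), with ticks under it for the 31 genes. Most ticks lie within the bulk of the histogram, Aldh7a1 stands at its left edge and Adh4 and Akr1b7 far out in its right tail.

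Adh4 and Akr1b7 stood high in different rats. The 3 rats with the highest Akr1b7, mulberry rats 4 and 2 and control rat 3, had Adh4 intensities of 873, 963 and 1113. The 3 rats with the lowest Akr1b7, control rats 4 and 5 and mulberry rat 3, had Adh4 intensities of 3107, 4638 and 3438. Mulberry rat 5 was low for both, with 1018 for Adh4 and 186 for Akr1b7. Between these for Akr1b7 lay mulberry rat 1 (Adh4 2911, Akr1b7 474), control rat 1 (434 and 512) and control rat 2 (2886 and 284). Because Adh4 fell into separate clusters of rats, no correlation over the 10 rats is given, and this pattern was chosen with the values known.

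**Figure D4:**
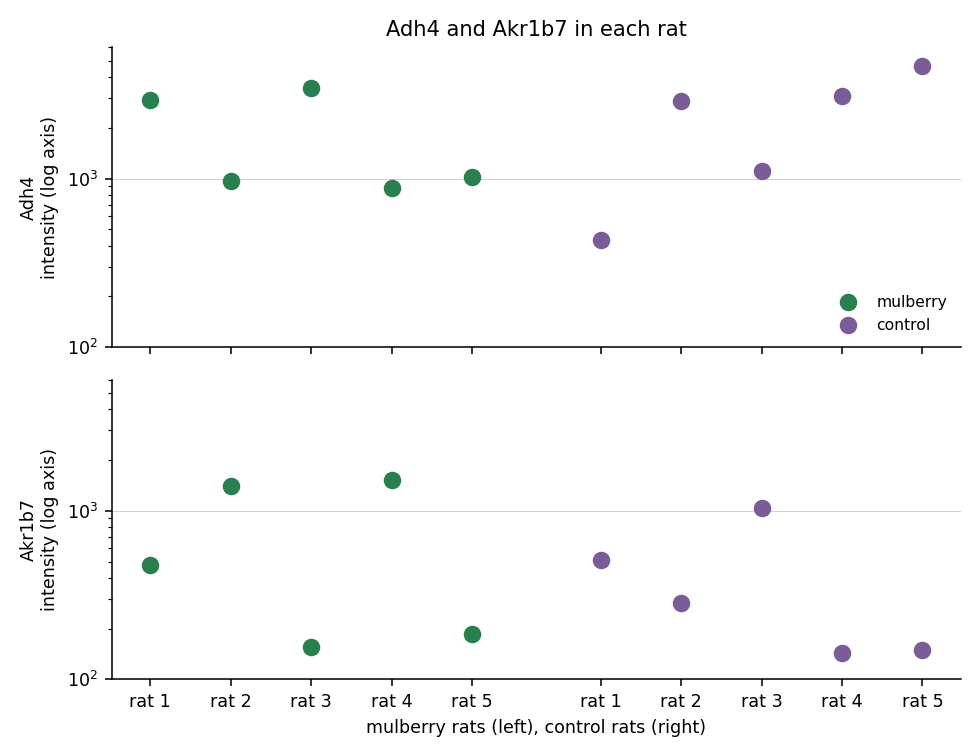
Intensity (log y axis) of Adh4 (upper panel) and Akr1b7 (lower panel) in each of the 5 mulberry rats on the left and the 5 control rats on the right, in the same rat order in both panels. Rats high for Akr1b7, such as mulberry rats 2 and 4, are low for Adh4, and mulberry rat 5 is low for both.

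No rat was high or low for the whole set. Mulberry rat 4 was the highest rat for 8 of the 31 genes, among them Akr1b7, Akr1c14, Akr1c15, Akr1c19, Aldh18a1 and Aldh1l2, and the lowest for 6, among them Aldh2, Aldh1a1, Aldh1l1 and Aldh4a1. Mulberry rat 1 was the highest for 6 genes, Adh1c and Aldh9a1 included, and control rat 3 for 5, Adh5, Akr1a1 and Aldh1a1 included. Control rat 1 was the lowest for 5 genes, 3 of them alcohol dehydrogenases (Adh1c, Adh4 and Adh5), and control rat 5 was the highest for Adh4 and Adh7.

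**Figure D5:**
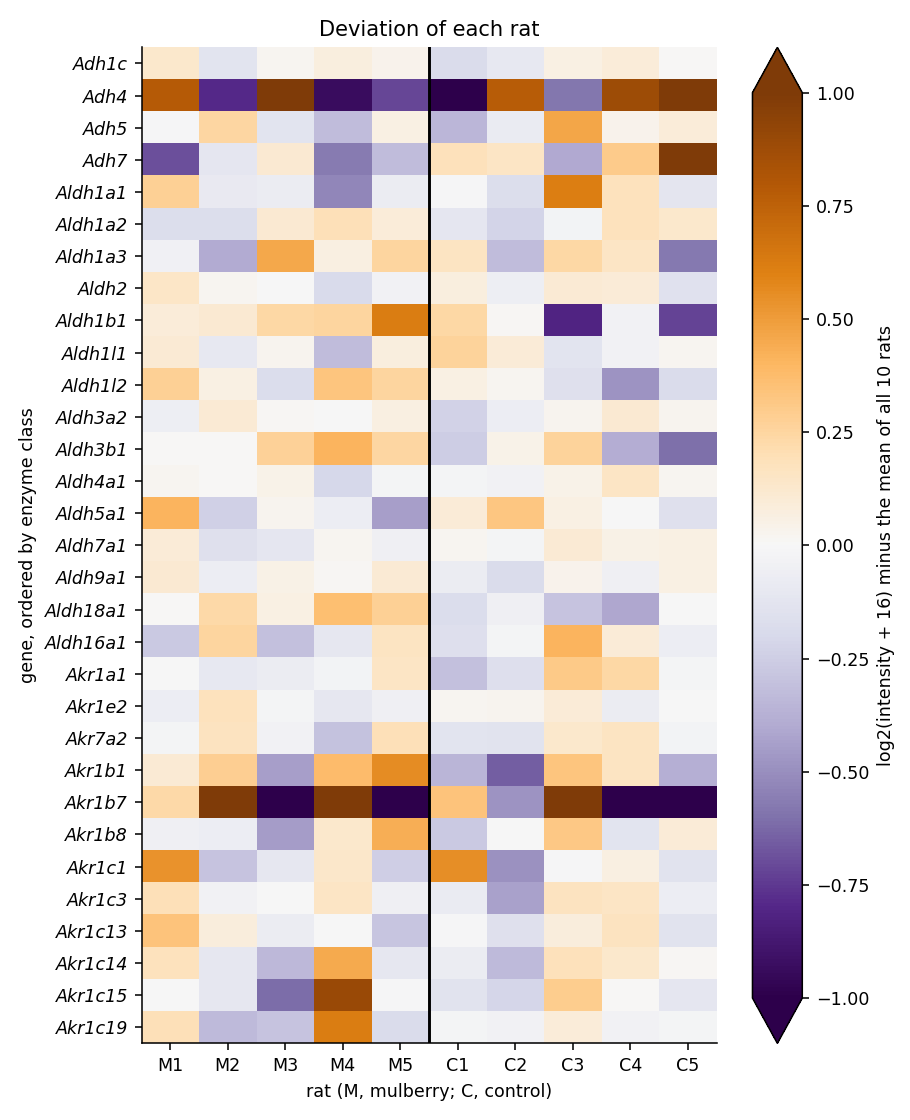
Deviation of each rat (columns, M for mulberry on the left and C for control on the right) from the mean of all 10 rats for the 31 genes (rows), as log2(intensity + 16), with colours capped at 1 in either direction. Adh4 and Akr1b7 carry the strongest colours, which do not follow the groups, and the Akr1c14, Akr1c15 and Akr1c19 rows share a high mulberry rat 4.

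Genes that work next to these enzymes gave no call either. In 10 lists of such genes, members of the set left out, limma called 0 genes at an adjusted p of 0.05, and 0 genes had an unadjusted p under 0.05, against 1.74% of all probe sets tested. Higher means with mulberry were found for 52.5% of all probe sets tested. With the median shift 8115 of these were higher and 10510 lower, and the counts of the lists below were not repeated with that shift. The 2 genes named from each list are those with its smallest p, and some unnamed genes differed by more. Retinoid handling genes had higher means in 16 of 21 cases (median +0.049), with the retinol-oxidising Dhrs9 at +0.45 ± 0.31 and Lrat, which esterifies retinol in stellate cells, at +0.20 ± 0.16. The Dhrs9 value rested on control rat 1, at an intensity of 22.5 against 83.8 to 134 in the other control rats, and was +0.12 without it. All 5 genes of ethanol and acetate handling had higher means (median +0.059), with the mitochondrial acetate-activating Acss1 at +0.14 ± 0.18 and its relative Acss3 at +0.093 ± 0.10. Of 14 folate one-carbon genes, 11 had lower means (median -0.053), with the trifunctional Mthfd1 at -0.099 ± 0.099 and Mtrr, which reactivates methionine synthase, at +0.18 ± 0.10. The most negative difference of the folate list was -0.29.

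Other carbonyl reductases and oxidases had higher means in 9 of 20 cases (median -0.034), with the reductase Dhrs7 at -0.24 ± 0.15 and the steroid enzyme gene Hsd3b5 at -0.16 ± 0.12. The most positive difference of that list was +0.43. For the polyol and hexuronate pathway the count was 6 of 10 (median +0.019), with Sord, the sorbitol dehydrogenase that follows aldose reductase, at +0.089 ± 0.076 and Ugp2, which makes UDP-glucose, at +0.14 ± 0.089. The proline, GABA, lysine and choline list had higher means in 8 of 17 cases (median -0.028), with the carnitine synthesis genes Bbox1 at +0.097 ± 0.086 and Tmlhe at +0.15 ± 0.13. Its most negative difference was -0.35. A further list was drawn up for targets of NRF2 and the aryl hydrocarbon receptor, 2 regulators of several Aldh and Akr genes. It also included the regulator genes Nfe2l2, Keap1 and Ahr themselves. Higher means were found in 9 of 20 cases (median -0.015), with Tiparp at +0.17 ± 0.10 and Pgd, of the pentose phosphate pathway, at -0.16 ± 0.11. The most positive difference of this list was +0.67. The list drawn up for lipid peroxidation and aldehyde conjugation also held genes of other roles, Gstz1, Fdxr, Slc27a2 and Agps among them. Its counts are therefore not those of lipid aldehyde enzymes alone. It split into 5 higher and 5 lower (median -0.00024), with Gstz1 at -0.068 ± 0.069 and Sgpl1, the sphingosine phosphate lyase, at -0.11 ± 0.13.

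Genes that mark the zones of the liver lobule were examined because several of these enzymes are zoned. Pericentral genes had 4 higher and 4 lower means (median -0.025), with the glutamate transporter Slc1a2 at +0.53 ± 0.51 and Cyp7a1 at -0.24 ± 0.26. Periportal genes had higher means in 9 of 11 cases (median +0.021), against 52.5% of all probe sets tested. The urea cycle gene Asl was at +0.14 ± 0.16 and the histidase gene Hal at +0.13 ± 0.18. All differences in these lists are log2 differences of mulberry minus control with the SE of the limma model, and none passed the test.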

How the data were processed

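Per the labels' protocols, total RNA of each liver was extracted with RNAiso and hybridised as biotinylated cRNA, 1 array per rat, and groups were taken from the sample titles. The authors deposited linear signal intensity values, 1 intensity per probe set and array. The submitters' processing notes name MAS5 and affy, with versions and roles not given in the sources used here. In the table the mean after trimming 2% at each end was 500 on every array (lowest value 1), so no further scaling was applied. Detection calls were not used. Mean signal was compared between probe sets to choose 1 per gene, to filter, and to pick the members with the highest mean signals. Intensities were summed within marker lists, and levels were not otherwise compared between probe sets. Precision is limited by the number of arrays.

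From these values log2(intensity + 16) was computed, which understates differences of dim probe sets. After 57 control probe sets and the lower 40 percent by mean were removed, 18625 of 31042 probe sets were tested with limma 3.58.1 in R 4.3.3 (lmFit, eBayes with a variance trend, two-sided, Benjamini-Hochberg, threshold 0.05). The test was tried on simulated data with known changes, and its recovery of small changes is not reported here. Python 3.11.15 with pandas 2.3.3, numpy 2.4.6 and matplotlib 3.10.9 made tables and plots. Symbols came from the platform annotation, and all 34 matched RefSeq genes of GRCr8 by Entrez identifier. Members and lists were chosen with earlier results of these data known. Full values are given for the members with the 5 smallest p-values, largest differences, largest SDs and highest mean signals, and for any without overlap; from each list the 2 genes with the smallest p are named. The replicate numbers were not used to pair the rats in the main fit. Deviations of same-numbered rats correlated between -0.33 and 0.096, and only mulberry rat 1 correlated best with the control rat of its number. Such correlations cannot show that no pairing existed. Alternatives were other pseudocounts (1 and 64), filters, scalings, variance models, the replicate block, other probe sets per gene, a threshold of 0.1 on the adjusted p, and leaving out each rat.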

Additional observations from a re-analysis of the deposited data

Results flagged for a closer look

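Of 68 groups of 5 rats (34 genes in each treatment), 5 held a rat that stood apart from the other 4 by Dixon's 95% criterion on the log2 scale, and chance alone flags about 1 in 20 groups. Akr1e2 was 3040 in mulberry rat 2, against 2504 to 2649 in the other mulberry rats. Aldh4a1 was 5862 in mulberry rat 4, against 6660 to 6957 in the other mulberry rats. Akr1c19 was 416 in control rat 3, against 379 to 385 in the other control rats. Akr1b10, which lay below the filter, was 25.2 in mulberry rat 5, against 58.8 to 65.8 in the other mulberry rats, and 13.7 in control rat 2, against 61.9 to 78.7 in the other control rats.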

How the results depend on the processing

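No probe set and no gene of the set was called under any alternative run, and the smallest adjusted p there was 0.113. The median difference over the set was between -0.016 and +0.041 with other settings and between -0.023 and +0.044 with each rat left out. The count of genes at an unadjusted p under 0.05, 4 as reported and followed over the alternatives as a choice made after seeing the data, was 2 with the filter at the 60th percentile, 2 with the median shift and 1 (Adh7) with the replicate number as a block, and 0 to 5 with each rat left out; it was 0 without mulberry rat 5, and 1 without mulberry rat 4, control rat 4 or control rat 5. The count of genes whose groups do not overlap, 1 as reported, was 0 with the filter at the 60th percentile, 0 with quantile normalization and 0 with the median shift, and 1 to 2 with each rat left out: it was 2 without control rat 1, control rat 3 or mulberry rat 3. The filter at the 60th percentile kept 27 genes of the set and removed Aldh18a1 and Aldh1b1, so both counts fell there through the filter itself. The replicate block changed no call. Of 616 differences of single genes under an alternative, 565 kept their direction, and 17 of the 31 genes kept it throughout, Adh7, Aldh1b1, Aldh1l2, Aldh18a1 and Aldh3b1 among them. These 5 have the smallest p-values in the same data, so their kept signs are no separate evidence. The count at an unadjusted p under 0.05 also stayed 4 without the variance trend and with array weights, but its genes changed. Aldh3b1 entered and Aldh1l2 dropped out in both. With array weights Akr1b1 also entered and Aldh18a1 dropped out. Signs turned with quantile normalization for Adh1c (-0.0035), Akr1c19 (-0.0030) and Aldh1a2 (-0.0037), with the median shift for Akr1c1 (-0.016), Akr1c13 (-0.0065), Akr1c19 (-0.023), Akr7a2 (-0.026) and Aldh1a2 (-0.0040), with array weights for Adh5 (+0.032), Akr1a1 (+0.061), Akr1b8 (+0.041), Akr1c19 (-0.047) and Aldh2 (+0.013), and with the median over probe sets for Adh1c (-0.047). With each rat left out, signs turned for 13 genes, whose ranges were -0.76 to +0.087 for Adh4, -0.16 to +0.044 for Adh5, -0.10 to +0.053 for Akr1a1, -0.11 to +0.11 for Akr1b8, -0.12 to +0.15 for Akr1c1, -0.061 to +0.095 for Akr1c13, -0.078 to +0.12 for Akr1c14, -0.15 to +0.23 for Akr1c15, -0.15 to +0.087 for Akr1c19, -0.045 to +0.077 for Akr7a2, -0.029 to +0.071 for Aldh1a2, -0.070 to +0.014 for Aldh2 and -0.0019 to +0.084 for Aldh3a2. In 13 further genes a single rat moved the difference by over 1.5 times with its sign kept, Aldh1a1 and Aldh1a3 among them. Among the 20 named genes of the pathway lists, an alternative added after seeing the data, a single rat did so in 17 and turned the sign in 1 (Hal, -0.0065 without mulberry rat 1). The cause of these turns was not tested. With 5 rats a group, the intervals given for each gene limit what could be seen.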
